A study of Mus musculus with 22 samples.

Results

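Alox12e, Calca, Wfdc12 and Entpd8 are 4 of the 19465 genes counted in spatial transcriptome sections of the mouse mammary gland. They were chosen by measured values, because they showed some of the largest increases between 3 and 18 months of age in spots rich in epithelial transcripts, so their levels by age in those spots are a description and carry no test. The sections came from virgin female mice of the inbred C57BL/6J strain, with 2 sections per age, and no treatment is given in the labels. Fresh gland was fixed in formalin and embedded in paraffin, and transcripts were read on Visium CytAssist slides, where each barcoded spot covers a small area that can hold several cells. The labels do not say whether the 2 sections of an age came from different mice, so that spreads and p-values describe these sections only.

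The virgin mammary gland is a tree of bilayered ducts in a fat pad. Its inner luminal layer holds hormone-sensing cells and secretory precursors, and its outer layer is made of contractile myoepithelial cells that carry keratin 14. Alox12e encodes an epidermal-type lipoxygenase, one of the enzymes that add oxygen to polyunsaturated fatty acids such as arachidonic acid. Calca encodes the hormone calcitonin and, by alternative splicing, the neuropeptide CGRP. Wfdc12 encodes a small secreted protein with a WAP four-disulfide core domain, a fold found in protease inhibitors, and Entpd8 encodes a cell-surface enzyme that splits extracellular nucleotides. Epcam is a surface marker of epithelial cells, and Krt10 is a keratin of the differentiating layers of skin.

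In the mouse reference annotation (RefSeq, build GRCm38.p6), Alox12e (ENSMUSG00000018907) spans chr11:70315610-70322720, Calca (ENSMUSG00000030669) chr7:114625981-114636910 and Wfdc12 (ENSMUSG00000042845) chr2:164189231-164190558, each on the minus strand. Entpd8 (ENSMUSG00000036813) spans chr2:25079296-25085719 on the plus strand. Because the 4 genes were each higher in epithelial-rich spots of both 18-month sections, the 250 bases before the annotated start of each gene are shown. They were taken from RefSeq, build GRCm38.p6, at chr11:70322531-70322780 for Alox12e, chr7:114636358-114636607 for Calca, chr2:164190559-164190808 for Wfdc12 and chr2:25080073-25080322 for Entpd8, and are written 5′ to 3′ on the strand of the gene. Capitals mark matches to any of 6 motifs.
Alox12e: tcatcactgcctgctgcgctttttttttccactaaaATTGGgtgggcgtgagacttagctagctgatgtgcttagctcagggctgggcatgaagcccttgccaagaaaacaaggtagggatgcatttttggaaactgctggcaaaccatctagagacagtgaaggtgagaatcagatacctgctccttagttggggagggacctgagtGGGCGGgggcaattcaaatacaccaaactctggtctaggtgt
Calca: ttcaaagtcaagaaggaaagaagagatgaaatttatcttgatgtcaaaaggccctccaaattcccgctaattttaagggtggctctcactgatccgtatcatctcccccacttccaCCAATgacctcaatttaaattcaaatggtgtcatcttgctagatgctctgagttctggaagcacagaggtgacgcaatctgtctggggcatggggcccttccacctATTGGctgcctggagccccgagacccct
Wfdc12: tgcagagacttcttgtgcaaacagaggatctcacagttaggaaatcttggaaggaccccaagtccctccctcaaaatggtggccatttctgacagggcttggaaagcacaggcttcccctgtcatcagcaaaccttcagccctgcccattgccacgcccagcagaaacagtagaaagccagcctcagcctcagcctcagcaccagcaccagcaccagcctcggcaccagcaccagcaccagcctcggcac
Entpd8: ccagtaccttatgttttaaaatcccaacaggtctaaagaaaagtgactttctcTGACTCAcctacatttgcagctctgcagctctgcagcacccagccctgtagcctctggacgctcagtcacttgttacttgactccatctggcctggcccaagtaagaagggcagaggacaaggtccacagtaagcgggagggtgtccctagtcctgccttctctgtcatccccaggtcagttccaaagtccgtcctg
The motifs were searched on both strands: TATAAA (the core promoter box of that name), CCAAT (bound by NF-Y), GGGCGG (bound by Sp factors), TGANTCA (an AP-1 motif), TTCNNNGAA (a STAT motif) and CAGCTG (an E-box). CCAAT was found in Alox12e, 1 time, and in Calca, 2 times, and is present in 33.8% of 32526 windows of the same length. GGGCGG was found in Alox12e alone and is present in 33.0% of all windows. TGANTCA was found in Entpd8 alone and is present in 6.73% of all windows. TATAAA (12.3% of all windows), TTCNNNGAA (7.04%) and CAGCTG (13.1%) were not found in the 4 windows, and Wfdc12 matched none of the 6. No motif was therefore shared by all 4 windows. The GC content was 49.6% for Alox12e, 48% for Calca, 57.2% for Wfdc12 and 52.4% for Entpd8, against a median of 52.4% over all windows. The Calca and Entpd8 windows lie inside the annotated span of their own gene and the Alox12e window lies partly inside it, and which start was used in the gland was not tested.

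The 3-month sections held 4403 and 4070 spots, and the 18-month sections 6597 and 9745. The 18-month sections were shallower, with a median of 1762 and 1077 unique molecular identifiers (UMIs, counted transcript molecules) per spot against 8041 and 6264. Spots were called epithelial-rich when at least 3 UMIs and at least 0.3% of their UMIs came from a list of pan-epithelial genes, of which Epcam is one. The 3-month sections had 184 and 193 such spots, and the 18-month sections 50 and 202. They carried 3002985, 2366802, 591228 and 1222243 UMIs, and 18-month section 2 was the shallowest, with a median of 4708 UMIs per epithelial-rich spot against 11271 to 15778 in the other sections. Spot barcodes name a grid position, so that 1244 to 5883 barcodes recurred between pairs of sections, all at the same position. In summed sections, fewer cells of a type and less RNA per cell cannot be told apart.

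Alox12e was at the level of rare counts at 3 months and had the largest log2 ratio among the genes called higher at 18 months. Levels are given as counts per 1000000 UMIs of the spots summed (CPM). In epithelial-rich spots Alox12e reached 3.66 and 2.96 CPM in the 3-month sections (11 and 7 UMIs) and 266 and 367 CPM in the 18-month sections (157 and 448 UMIs). Both 18-month sections lay far above both 3-month sections, and the 18-month sections lay close to each other. The mean was 3.31 ± 0.499 CPM at 3 months and 316 ± 71.4 CPM at 18 months (SD, n = 2), and the fitted log2 ratio was 6.22 (SE 0.31).

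Calca showed the same order of sections. It measured 4.66 and 8.45 CPM at 3 months (14 and 20 UMIs) and 220 and 114 at 18 months (130 and 139 UMIs). In 3-month section 2, 6 of the 20 UMIs lay in 1 spot. The groups did not overlap, with means of 6.56 ± 2.68 and 167 ± 75.1 CPM (SD, n = 2), and the fitted log2 ratio was 4.31 (SE 0.36).

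Wfdc12 and Entpd8 were also higher in both 18-month sections, but mostly in section 1. Wfdc12 measured 3.66 and 3.80 CPM at 3 months (11 and 9 UMIs) and 205 and 32.7 at 18 months (121 and 40 UMIs), with a log2 ratio of 4.48 (SE 0.71). Entpd8 measured 2.33 and 2.96 CPM at 3 months (7 UMIs in each) and 74.4 and 18.0 at 18 months (44 and 22 UMIs), with a log2 ratio of 3.61 (SE 0.62). The 18-month sections differed widely for both genes, with means of 119 ± 122 CPM for Wfdc12 and 46.2 ± 39.9 CPM for Entpd8 (SD, n = 2). Without 18-month section 1 the log2 ratio was 2.78 for Wfdc12 and 2.42 for Entpd8, and without 18-month section 2 it was 5.31 and 4.35. For Alox12e and Calca it stayed between 5.84 and 6.41 and between 3.81 and 4.75 when any 1 section was left out.

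These ratios held the ranks 1 (Alox12e), 2 (Wfdc12), 4 (Calca) and 6 (Entpd8) among the genes called higher in this comparison. Tnfsf11, the gene of the cytokine RANKL, at 4.39 and Rspo1, the gene of a Wnt agonist, at 3.62 lie between them and are not among the 4. Just below Entpd8 came Igkc, the immunoglobulin kappa constant gene, at 3.36 and Muc3a, a mucin gene, at 3.34. Across the epithelial-rich spots, 1587 of 14684 genes tested (10.8%) passed an adjusted p of 0.05 (edgeR quasi-likelihood test, Benjamini-Hochberg), 632 higher (4.3%) and 955 lower (6.5%) at 18 months. With library size as the only scaling, which moved the median of all genes up by 0.32 on the log2 scale, 2091 were higher and 509 lower. For 51.4% of the genes tested, as for the 4, both 18-month sections were above both 3-month sections, so that the lack of overlap alone does not set the 4 genes apart.

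The share of epithelial-rich spots with at least 1 UMI was also higher in both 18-month sections for each of the 4 genes. For Alox12e it was 5.98% and 3.11% at 3 months and 78% (95% exact binomial interval 64.0 to 88.5) and 48.5% (41.4 to 55.6) at 18 months. For Calca it was 7.61% and 7.25%, then 62% (47.2 to 75.3) and 34.2% (27.6 to 41.1). For Wfdc12 it was 5.43% and 4.66%, then 66% (51.2 to 78.8) and 12.4% (8.17 to 17.7), and for Entpd8 3.26% and 3.63%, then 52% (37.4 to 66.3) and 9.90% (6.15 to 14.9). The interval of 18-month section 2 reached down to the 3-month intervals for Wfdc12 and Entpd8 and stayed above them for Alox12e and Calca. Intervals cover counting error only.

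**Figure D1:**
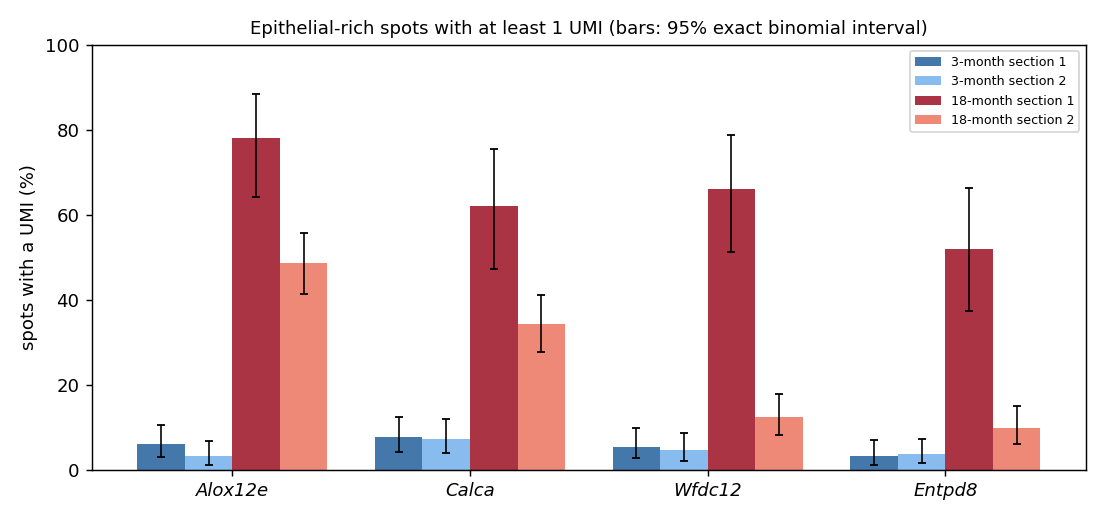
Share of epithelial-rich spots with at least 1 UMI of each gene (percent, vertical axis) in the 4 sections; bars are single sections and error bars the 95% exact binomial interval. The share in 18-month section 1 runs from 52% to 78%, and in 18-month section 2 it falls from 48.5% for Alox12e to 9.90% for Entpd8.

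With a threshold of 2 UMIs per spot the 3-month sections were nearly empty. In the 3-month sections 0% and 0.518% of epithelial-rich spots had at least 2 Alox12e UMIs, against 60% and 34.7% in the 18-month sections. The same 18-month share was 44% and 13.4% for Calca, 54% and 3.47% for Wfdc12 and 20% and 0.990% for Entpd8. The Entpd8 signal of 18-month section 2 was thus almost wholly made of single UMIs.

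To set the sections at 1 depth, 500 UMIs were drawn from each spot. Only 1 epithelial-rich spot, in 3-month section 2, held fewer and was not used. Alox12e was then found in 0 of 184 spots in 3-month section 1, which allows a share of up to 1.63% by 3 counts of the total and up to 1.98% by the exact interval, and in 0.521% of spots in 3-month section 2. At 18 months it was found in 10% (3.33 to 21.8) and 13.4% (8.997 to 18.8) of spots. Calca was found in 1.09% (0.132 to 3.87) and 1.04% (0.126 to 3.71) at 3 months and in 6% (1.25 to 16.5) and 3.96% (1.73 to 7.65) at 18 months. Its 18-month intervals thus overlapped those of 3 months at this depth, and the share in section 1 rested on 3 spots. For Wfdc12 (4% and 1.98%) and Entpd8 (8% and 1.49%) the 18-month shares rested on 2 to 4 spots, and a difference from 3 months was not detectable at this depth in section 2. In section 1 the Wfdc12 interval (0.488 to 13.7) overlapped those of 3 months (up to 3.87 and 1.90). That of Entpd8 (2.22 to 19.2) lay above them (up to 1.98 and 1.90). With 1000 UMIs drawn per spot, where 17 shallower spots of 18-month section 2 and 1 spot of each 3-month section were not used, Alox12e was found in 22% (11.5 to 36.0) of spots of 18-month section 1 and 19.5% (14.02 to 25.9) of those of section 2, Calca in 16% (7.17 to 29.1) and 7.03% (3.79 to 11.7), Wfdc12 in 16% (7.17 to 29.1) and 2.16% (0.592 to 5.44) and Entpd8 in 6% and 1.62%. The 3-month shares with 1000 UMIs were 0% in both sections for Alox12e, 0% and 0.521% for Calca and for Wfdc12, and 0.546% and 1.04% for Entpd8. For Wfdc12 and Entpd8 a rise in section 2 was not detectable at this depth either. In section 1 the Entpd8 interval (1.25 to 16.5) also overlapped those of 3 months (up to 3.01 and 3.71), while that of Wfdc12 lay above them. At equal depth the intervals of the 18-month sections thus overlapped for Alox12e, Calca and Entpd8. For Wfdc12 they overlapped with 500 but not with 1000 UMIs.

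The 3-month counts were set beside genes that mark structures of skin. The reference was 12 hair follicle and sebaceous gland genes. In epithelial-rich spots of the 3-month sections these genes ran from 1.33 to 5.00 CPM in section 1 and from 1.27 to 4.23 in section 2. Alox12e, Wfdc12 and Entpd8 lay inside those ranges in both sections, as did Calca in section 1, and at such levels the counts could not be told apart from those of the reference genes. At 18 months the reference genes ran from 0 to 16.9 and from 1.64 to 13.1, and each of the 4 genes was above the highest of them in both sections, Entpd8 in section 2 by the smallest margin (18.0 against 13.1). Since these values chose the 4 genes, that comparison at 18 months is a description only.

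In the 18-month sections the levels of Alox12e and Calca were highest in the epithelial-rich spots and fell with distance from them. Both genes, like Wfdc12 and Entpd8, were chosen by their increase in these same spots. A high level there thus follows in part from the choice, and the fall with distance is a description only. Steps were counted on the hexagonal grid from each spot to the nearest epithelial-rich spot. In 18-month section 1, Alox12e fell from 266 CPM in the epithelial-rich spots to 69.8 at 1 step, 29.2 at 2 steps and 7.69 at 3 or more steps. In section 2 it fell from 367 to 70.5, 17.6 and 9.50. Calca fell from 220 to 96.3, 27.0 and 8.05 in section 1 and from 114 to 45.7, 14.1 and 6.78 in section 2. The levels decreased with each step in both sections for these 2 genes.

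Wfdc12 fell in the same way in 18-month section 1, from 205 to 81.9, 28.1 and 8.41. In section 2 it was 32.7 in the epithelial-rich spots and 8.01, 5.63 and 7.47 at 1, 2 and 3 or more steps, with no further fall past the first step. Entpd8 went from 74.4 to 16.9, 5.62 and 5.19 in section 1 and from 18.0 to 8.01, 7.03 and 5.45 in section 2. In section 2, 7 of the 10 Entpd8 UMIs at 1 step lay in 1 spot. In the 3-month sections the 4 genes stayed between 1.26 and 4.01 at every distance of 1 step or more.

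**Figure D2:**
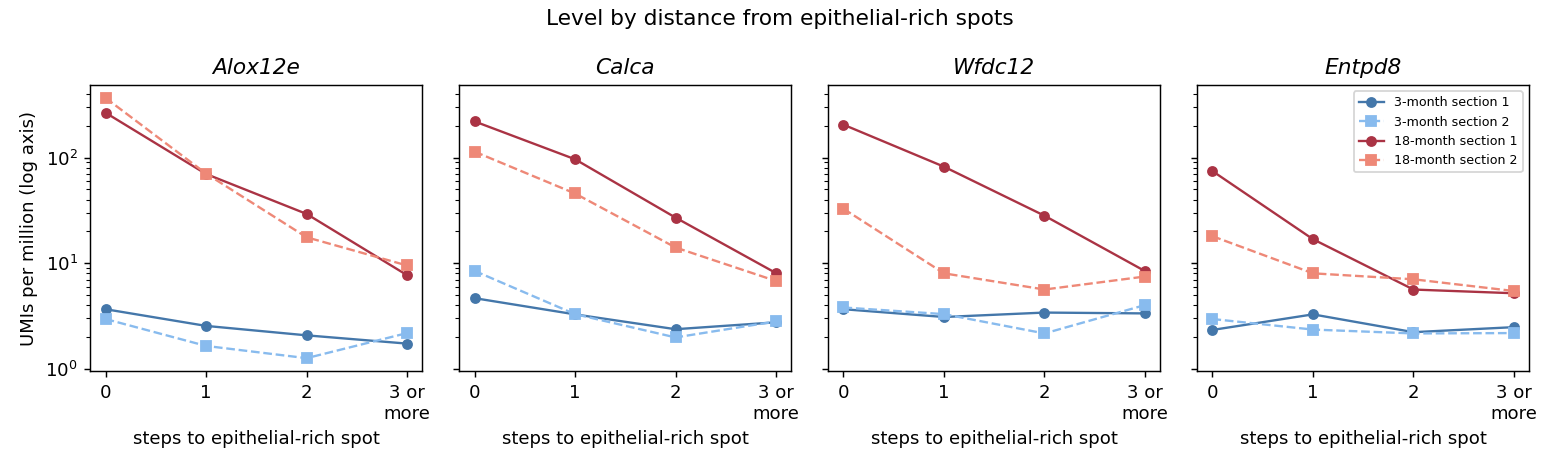
Level of each gene (CPM, log axis) against the number of grid steps to the nearest epithelial-rich spot, with 0 for the epithelial-rich spots themselves; each line is 1 section. The 18-month lines of Alox12e fall from 266 and 367 to 7.69 and 9.50, and the 3-month lines stay low at all distances.

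Far from the epithelium the 18-month levels were near the reference genes, which ran from 1.61 to 5.54 in section 1 and from 1.16 to 7.18 in section 2 at 3 or more steps. Entpd8 lay inside these ranges in both sections and Calca in section 2. Alox12e and Wfdc12 lay above them in both sections, Wfdc12 in section 2 by little (7.47 against 7.18). The epithelial-rich spots of 18-month section 1 held 3.10% of the section's UMIs and 42.4% of its Alox12e, 35.2% of its Calca, 34.1% of its Wfdc12 and 29.3% of its Entpd8 UMIs. In section 2 they held 5.78% of all UMIs and 61.8%, 41.7%, 21.4% and 16.2% of those of the 4 genes.

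Lymphoid-rich spots, which had at least 0.3% of their UMIs from B and T cell genes and were never epithelial-rich, formed another visible group of positive spots at 18 months for Alox12e, Calca and Entpd8. There were 34 and 81 of them at 3 months and 235 and 381 at 18 months. Those at 18 months were deep, with 25.3% and 37.4% of the UMIs of their sections. The part of depth in this group of positive spots was not tested. Alox12e measured 11.8 and 8.49 CPM there at 3 months (9 and 10 UMIs) and 13.7 and 12.9 at 18 months (66 and 102 UMIs). Entpd8 measured 17.0 and 5.94 at 3 months (13 and 7 UMIs) and 9.12 and 8.96 at 18 months (44 and 71 UMIs). Calca measured 10.5 and 6.79, then 7.67 and 7.58. Over all spots outside the epithelial-rich ones, Calca measured 12.9 and 9.73 CPM at 18 months, Alox12e 11.5 and 13.9 and Entpd8 5.73 and 5.72. The lymphoid-rich spots thus lay below that level for Calca in both 18-month sections and for Alox12e in section 2. They lay above it for Alox12e in section 1 and for Entpd8 in both. That level includes the spots at 1 and 2 steps. Against spots at 3 or more steps, lymphoid-rich spots were higher in both 18-month sections for Alox12e (7.69 and 9.50 CPM at 3 or more steps) and Entpd8 (5.19 and 5.45). For Calca (8.05 and 6.78) they were higher in section 2 only. At 3 months the level outside the epithelial-rich spots was 1.91 and 1.91 for Alox12e, 2.76 and 2.71 for Calca and 2.55 and 2.20 for Entpd8. Wfdc12 measured 9.15 and 1.70 at 3 months (7 and 2 UMIs) and 2.49 and 5.05 at 18 months (12 and 40 UMIs), below its 12.7 and 7.37 CPM over all spots outside the epithelial-rich ones. In lymphoid-rich spots the 18-month sections lay inside the 3-month range for Calca, Wfdc12 and Entpd8 and close above it for Alox12e. Lymphoid-rich spots held 52.2% of the Entpd8 UMIs of 18-month section 2 and 37.4% of all its UMIs.

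**Figure D3:**
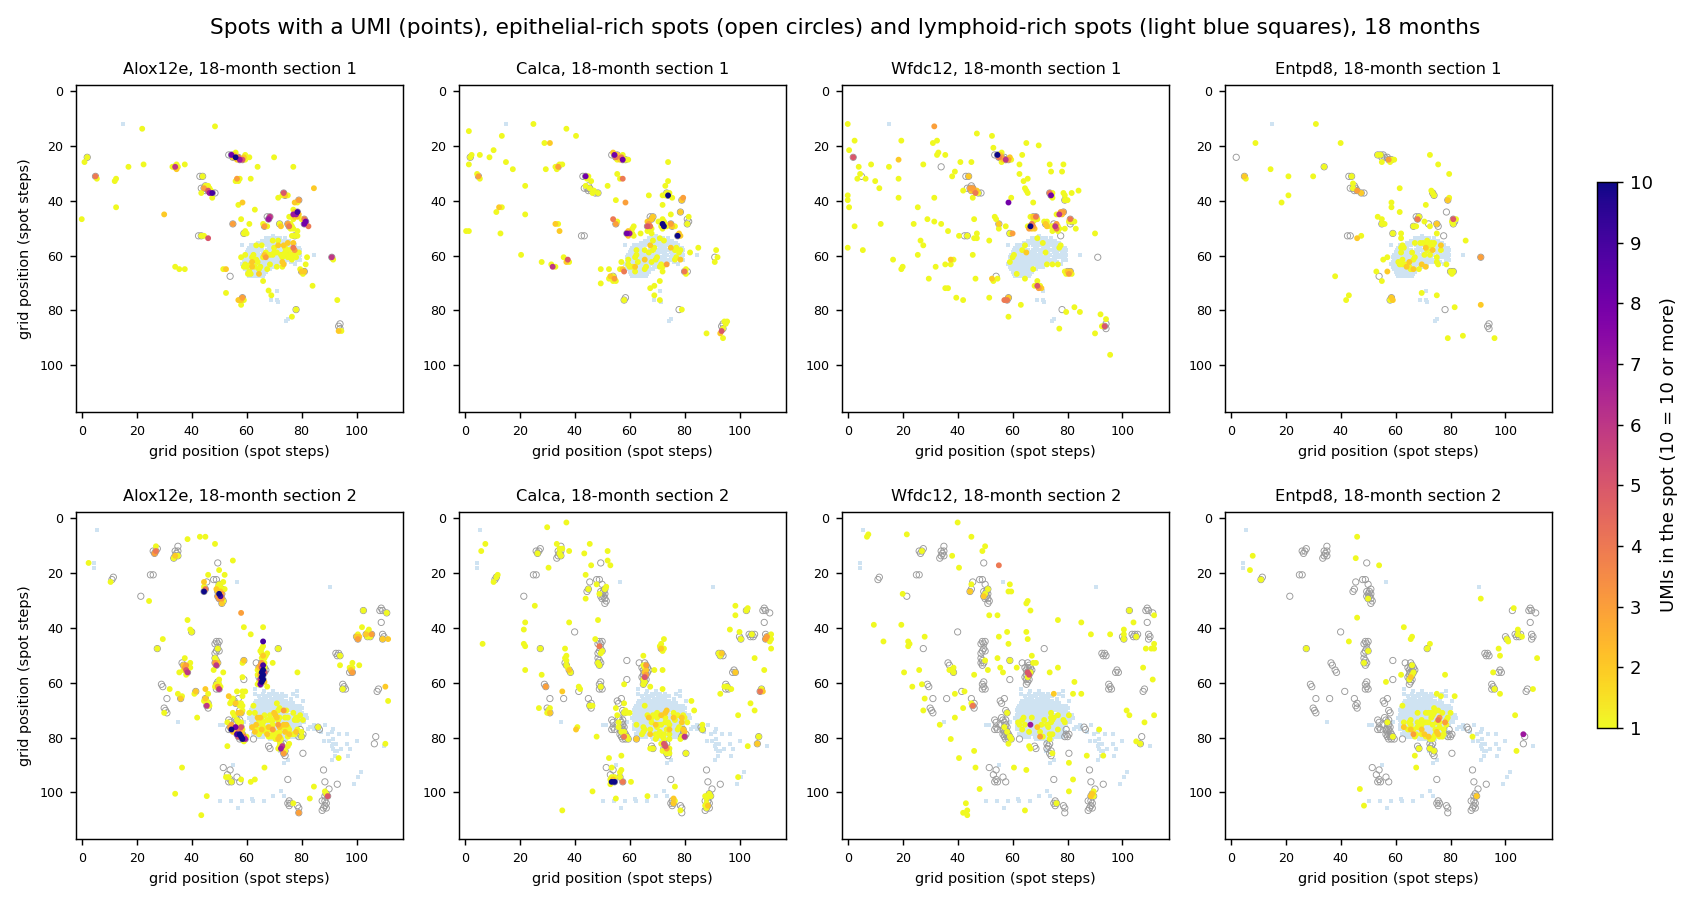
Positions on the spot grid (both axes in spot steps) of spots with a UMI of each gene, coloured by UMIs, in 18-month section 1 (top) and section 2 (bottom); open circles are epithelial-rich and light blue squares lymphoid-rich spots. The spot with the most UMIs is epithelial-rich in both sections for Alox12e (13 and 27 UMIs) and Calca (17 and 12). In section 2 it is a lymphoid-rich spot with 7 UMIs for Wfdc12 and a spot at 1 step with 7 UMIs for Entpd8. Spots at 3 or more steps reach 9 Alox12e UMIs in section 2. Positive spots of the lymphoid-rich area hold mostly 1 or 2 UMIs.

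Summed over all spots, the change was diluted. Alox12e went from 2.04 and 1.99 CPM to 19.4 and 34.3, Calca from 2.90 and 3.17 to 19.3 and 15.7, Wfdc12 from 3.34 and 3.54 to 18.6 and 8.84 and Entpd8 from 2.53 and 2.26 to 7.86 and 6.43. The fitted log2 ratios were 3.21 (SE 0.25), 2.04 (SE 0.21), 1.52 (SE 0.36) and 1.07 (SE 0.20). Of 19220 genes tested over all spots, 62.1% were past the threshold (35.5% higher and 26.7% lower) and 71.7% had both 18-month sections above both 3-month sections, so that either says little of any one gene. Library size alone as the scaling moved the median of all genes up by 0.50. In the spots outside the epithelial-rich ones, 61.7% of 19214 genes passed (35.0% higher and 26.6% lower), 72.5% had both 18-month sections above both 3-month sections and the shift was 0.53. There the log2 ratios were 2.20 for Alox12e, 1.53 for Calca, 1.04 for Wfdc12 and 0.74 for Entpd8. At 3 or more steps they were 1.61, 0.88, 0.59 and 0.64.

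The authors' deposited table of Moran's I, which is high where spots with a gene's UMIs lie side by side, was higher at 18 months for Alox12e, Calca and Wfdc12. For Alox12e it was -0.000924 and 0.0180 in the 3-month sections and 0.0952 and 0.141 in the 18-month sections. For Calca the deposited scores were 0.00435 and -0.000694, then 0.0951 and 0.0346, and for Wfdc12 -0.00116 and -0.00398, then 0.0505 and 0.00579. The deposited adjusted p of Wfdc12 in 18-month section 2 was 0.182, while it was listed at 0 for Alox12e and Calca in both 18-month sections. For Entpd8 the deposited scores were higher at 3 months (0.0134 and 0.0204) than at 18 months (0.00730 and 0.000877). The deposited adjusted p of Entpd8 was 0.0126 and 0.000154 at 3 months and 0.139 and 0.937 at 18 months. For Alox12e at 3 months it was 0.928 and 0.000654, so that 3 of these 4 scores at 3 months were past 0.05. Entpd8 passed in 3-month section 1 at rank 8417 of 19322 genes, so that passing says little of any one gene. At 18 months the ranks were 630 of 19308 and 146 of 19320 genes for Alox12e, and 631 and 1005 for Calca. The high Entpd8 level in epithelial-rich spots of 18-month section 1 thus came with no spatial score past the threshold.

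Contiguous epithelial-rich spots were joined into patches, and patches with at least 2000 UMIs were compared, 60 and 59 at 3 months and 25 and 58 at 18 months. At 18 months Alox12e was found in 23 of 25 and 36 of 58 patches, Calca in 22 and 40, Wfdc12 in 19 and 15 and Entpd8 in 17 and 15. At 3 months the 4 genes were found in 4 to 12 patches per section. The signal was therefore spread over most patches of 18-month section 1 and not held by a single patch. Whether these patches belong to 1 duct or to several was not tested. In section 2, 1 patch of 18 spots with 16.4% of the epithelial-rich UMIs held 34.8% of the Alox12e UMIs, at 777 CPM. A different patch of 3 spots held 18.0% of the Calca UMIs with 3.19% of all UMIs, at 642 CPM, and Alox12e measured 25.7 there.

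Detection of the 4 genes in the same spot was common in 18-month section 1 only. Of its 50 epithelial-rich spots, 14 held all 4 genes, 18 held 3 of them and 4 held none. Of the 202 in section 2, 5 held all 4, 15 held 3 and 70 held none. In the 3-month sections 146 of 184 and 160 of 193 spots held none and no spot held more than 2. Positive spots were deeper: the median was 12302 UMIs for Alox12e-positive against 4766 for Alox12e-negative spots in section 1, and 7861 against 2185 in section 2, so that shares of joint detection also follow depth.

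Likeness across patches was described with Spearman's rho of CPM, over 25 patches in section 1 and 58 in section 2. Patches of a section share a library and differ in depth, and no p is given. Alox12e and Calca did not rise together (rho -0.29 and -0.16). Alox12e went with the summed myoepithelial marker list (0.41 and 0.61) and with Krt14 itself (0.40 and 0.48). Calca went with the hormone-sensing list (0.69 and 0.45) and against the secretory precursor list (-0.58 and -0.22), while Alox12e had -0.45 and 0.16 with the hormone-sensing list. The rho of Alox12e with the depth of the patch was 0.22 and 0.53, and that of Calca -0.22 and 0.27. For Wfdc12 and Entpd8, with 40 and 22 UMIs in the epithelial-rich spots of section 2, the values were mostly weak and differed in sign between sections.

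**Figure D4:**
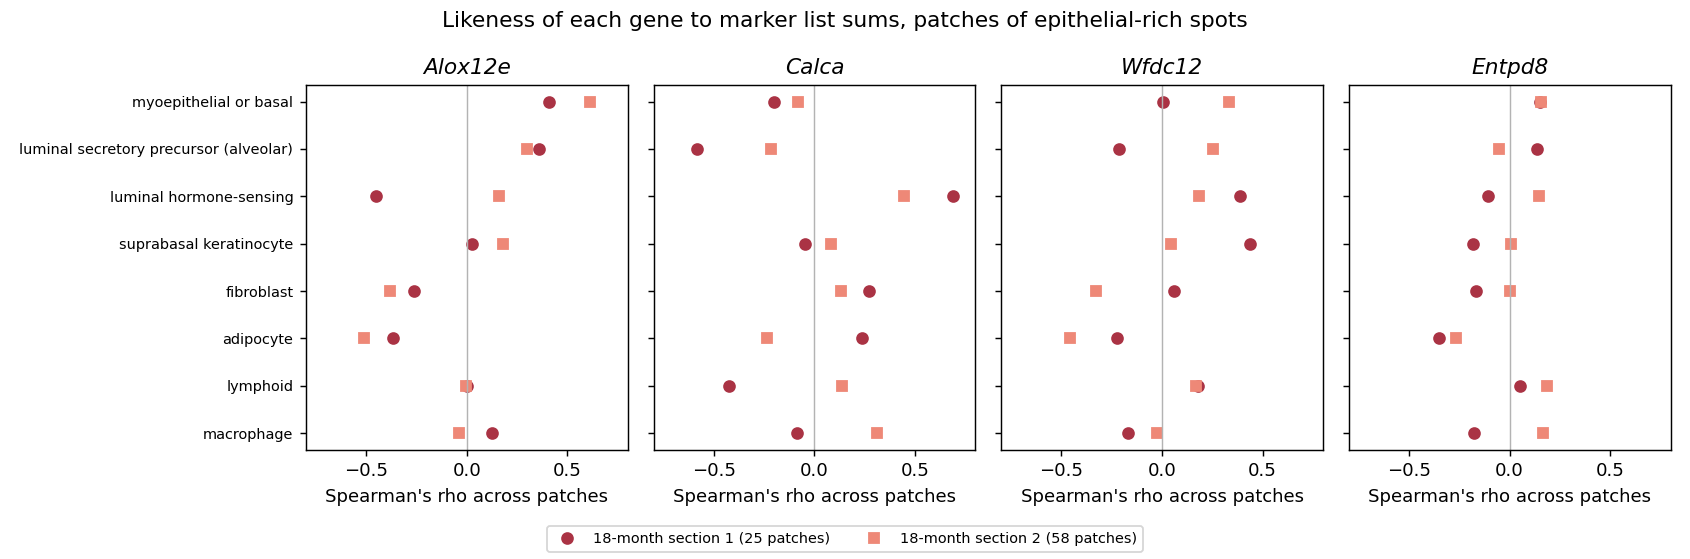
Spearman's rho (horizontal axis) across patches of epithelial-rich spots between each gene and the summed level of 8 marker lists (rows), for 18-month section 1 (25 patches, circles) and section 2 (58 patches, squares). Alox12e lies right of 0 with the myoepithelial list (0.41 and 0.61) and Calca with the hormone-sensing list (0.69 and 0.45).

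Among 3062 genes with at least 50 UMIs in the patches of both sections, those most like Alox12e by the mean rho were Barx2, a homeobox transcription factor (0.56), Tpm2, a tropomyosin (0.54), Gabrp, a GABA receptor subunit (0.53), Alox15, a lipoxygenase (0.52), and Mfge8, the milk fat globule protein (0.52). The median gene had 0.089 with Alox12e. Those most like Calca were Prlr, the prolactin receptor (0.54), Srp14, a signal recognition particle subunit (0.53), Rap1gap, a GTPase activator (0.50), Wfdc2, a WAP domain gene (0.46), and 1600012H06Rik (0.46), against a median of 0.035. Prlr belongs to the hormone-sensing list and Mfge8 to the secretory list. Of these 10 genes, 5 stayed among the top 5 when only patches with at least 5000 UMIs were used, and 5 when single spots were used. Wfdc12 and Entpd8 had too few UMIs in section 2 for this comparison.

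The epithelial-rich spots of each section were also split by Krt14, which the choice of the 4 genes did not use. The test kept the section as a block and used 3 sections, because 18-month section 1 had only 4 Krt14-negative spots. Alox12e measured 405 CPM in Krt14-positive and 148 in Krt14-negative spots of 18-month section 2 (421 and 27 UMIs). In the 3-month sections it measured 3.43 against 5.28 and 2.95 against 2.98, with 1 or 2 UMIs on the negative side, so that the difference rests on the 1 aged section. The log2 ratio was 1.17 (SE 0.29), and its adjusted p of 0.0534 (edgeR quasi-likelihood test) did not pass the threshold. That threshold was passed by 66 of 10735 genes (0.615%), 23 higher (0.214%) and 43 lower (0.401%), with 12.1% of genes at an unadjusted p under 0.05. Without 18-month section 2 Alox12e had too few UMIs to be tested, so that its p is not a test over sections as replicates. The adjusted p ran from 0.0148 to 0.237 over the alternatives, on both sides of the threshold. Nearly all Alox12e UMIs in this test came from spots of 18-month section 2, so that neither value stands for a difference replicated between sections. Krt14-positive spots of that section were also deeper, with a median of 7163 against 1935 UMIs, and the part of depth was not tested.

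Calca did not pass in the Krt14 split (log2 ratio 0.21, SE 0.38, adjusted p = 0.905, edgeR), with 116 and 98.5 CPM in 18-month section 2, nor did Wfdc12 (-0.02, SE 0.60, adjusted p = 0.995, edgeR). Entpd8 had too few UMIs to be tested. The genes with the largest increase past the threshold were Taf6 (3.70), Col4a6 (1.64), Arhgef19 (1.50), Eppk1 (1.06) and Col17a1 (1.05), of which Col4a6 and Col17a1 encode collagens of the basement membrane zone.

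The split by Krt10 used all 4 sections. Calca was higher in Krt10-positive spots of both 18-month sections, at 274 against 185 CPM in section 1 and 182 against 91.8 in section 2, and the 3-month sections gave 3.59 against 5.07 and 14.02 against 6.68. Its log2 ratio of 0.72 (SE 0.19) did not pass after adjustment over all genes (adjusted p = 0.227, edgeR), nor with the 18-month sections alone (0.76, adjusted p = 0.0564, edgeR). Krt10-positive spots were the deeper ones in every section, with medians of 18367 against 10383 and 7774 against 3784 UMIs at 18 months, and the part of depth was not tested. Wfdc12 measured 300.0 against 144 and 37.2 against 31.3 at 18 months, with a log2 ratio of 0.76 (SE 0.25, adjusted p = 0.681, edgeR). Alox12e (-0.15, SE 0.15, adjusted p = 0.984, edgeR) and Entpd8 (0.03, SE 0.39, adjusted p = 0.996, edgeR) did not pass either. In this split 6 of 11471 genes (0.0523%) passed, with 5.04% of genes at an unadjusted p under 0.05, all 6 lower in Krt10-positive spots: Igkc (-0.97), Npr3 (-0.52), Retn (-0.49), Car3 (-0.48), Fabp4 (-0.46) and Cfd (-0.44), most of them genes of fat cells. DESeq2 called 0 genes, with 70 at an unadjusted p under 0.05.

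Krt10 itself was rare and did not pass by age in epithelial-rich spots, measuring 18.6 and 20.7 CPM in the younger sections against 28.8 and 27.0 in the older ones. Krt10 was found in 33.3% of Alox12e-positive spots of 18-month section 1 and in 18.4% of those of section 2, against 0% and 11.5% of Alox12e-negative spots. Krt14 was found in 97.4% and 84.7% of Alox12e-positive spots, against 72.7% and 41.3% of Alox12e-negative ones. A split by Epcam could not be tested, since only 1 section had at least 10 Epcam-negative epithelial-rich spots, which Epcam itself helps to define. Outside the epithelial-rich spots Epcam was found in 54.5% and 46.3% of Alox12e-positive spots at 18 months, against 5.63% and 5.38% of Alox12e-negative ones. The same shares were 43.5% and 39.1% for Calca, 34.3% and 18.7% for Wfdc12 and 35.1% and 38.0% for Entpd8, against 5.69% to 6.37% of the spots negative for these genes. Of the Entpd8-positive spots outside, 36 of 94 and 55 of 92 were lymphoid-rich. Epcam was found in 37.0% and 32.3% of all lymphoid-rich spots, which were deep. The part of depth in these shares was not tested.

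The make-up of the epithelial-rich spots also differed between the ages. The counts of each list stand beside 4.3% higher and 6.5% lower over all genes tested. Of the myoepithelial list, 3 of 9 genes were higher and 0 lower, and its summed level was 1601 and 1265 CPM in the 3-month and 2745 and 2573 CPM in the 18-month sections. Of the hormone-sensing list, 1 of 10 genes was higher (Tnfsf11) and 7 lower, among them Prlr and Pgr, the receptors of prolactin and progesterone, and the summed level was 2951 and 3667, then 1265 and 1951. The adipocyte list had 7 of 8 genes lower, with 30659 and 34655, then 8826 and 15837. The secretory precursor list had 2 of 10 tested genes higher and 2 lower, with 3583 and 3078, then 4934 and 4360, and Csn1s1 was at 0 in all sections. The suprabasal keratinocyte list had 0 of 4 tested genes higher and 1 lower, with 84.9 and 98.0, then 108 and 91.6, and the hair follicle and sebaceous lists had 0 of 4 tested genes past the threshold, with sums of at most 20.7 at 3 months and 33.5 to 47.4 at 18 months. The mast cell list summed to 252 and 238, then 699 and 504, with 1 of 5 genes higher (Kit, a receptor that luminal precursors also carry) and 0 lower. In each section 1 gene made up most of that sum (199 and 181, then 653 and 399). The median gene of the mast cell list was at 16.7 and 14.8, then 13.5 and 33.5. The lymphoid list summed to 76.6 and 89.6, then 166 and 208. The part of these shifts in the levels of the 4 genes was not tested.

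In the lipoxygenase and leukotriene list, 1 of 13 genes tested was higher and 1 lower, with a median log2 ratio of -0.11 against 0.01 over all genes tested. The higher one was Alox15, a leukocyte-type lipoxygenase, which measured 17.0 and 11.8 CPM in the 3-month and 179 and 180 CPM in the 18-month sections. Its 18-month sections were almost equal and far above the 3-month sections, with a log2 ratio of 3.29 (SE 0.23). The lower one was Ltc4s, the leukotriene C4 synthase (-1.37, SE 0.28). Alox15 lies 21427 bases from Alox12e on the same chromosome. Of 8 measured genes within 100 kb of Alox12e it was the only one past the threshold, which 10.8% of all genes tested passed. Whether the probes of these related genes read each other's transcripts was not tested.

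In the calcitonin family and receptor list, 1 of 8 genes tested was higher, Calcb, and 0 lower, with a median of 0.03. Calcb encodes a second form of CGRP and lies 79645 bases from Calca. It measured 0.666 and 1.27 CPM in the 3-month and 15.2 and 6.55 CPM in the 18-month sections, with a log2 ratio of 2.95 (SE 0.60), and cross-reading with Calca was likewise not tested. Pde3b, a phosphodiesterase gene 88043 bases from Calca, was lower (-1.82, SE 0.23). Calcb and Pde3b were the only 2 neighbours of Calca within 100 kb that were tested. No receptor gene of the list passed.

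In the WAP domain list, 2 of 10 genes tested were higher and 1 lower, with a median of 0.82. Wfdc18 measured 310 and 213 CPM in the 3-month and 1571 and 913 CPM in the 18-month sections (log2 ratio 1.90, SE 0.30), and Slpi, a secreted inhibitor of leukocyte proteases, went from 119 and 131 to 228 and 534 (1.32, SE 0.32). Wfdc2 went the other way, from 481 and 697 to 169 and 429 (-1.26, SE 0.36). None of the 2 tested neighbours of Wfdc12 within 100 kb passed.

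In the ectonucleotidase and purinergic receptor list, 1 of 26 genes tested was higher and 2 lower, with a median of 0.10. Enpp1, which makes pyrophosphate from extracellular ATP, went from 30.3 and 33.4 to 98.1 and 56.5 CPM (log2 ratio 0.88, SE 0.26). Entpd5, a nucleotide-splitting enzyme of the endoplasmic reticulum, fell by 1.33 (SE 0.24) and Adora1, an adenosine receptor, fell by 1.43 (SE 0.36) on the log2 scale. Near Entpd8, Nsmf, 16415 bases away, was higher (0.90, SE 0.20) among 3 tested neighbours. In all 4 lists, and among the neighbours within 100 kb, the share of genes past the threshold can be read against the 10.8% of all genes tested. So few neighbours were tested that their counts are a description only.

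**Figure D5:**
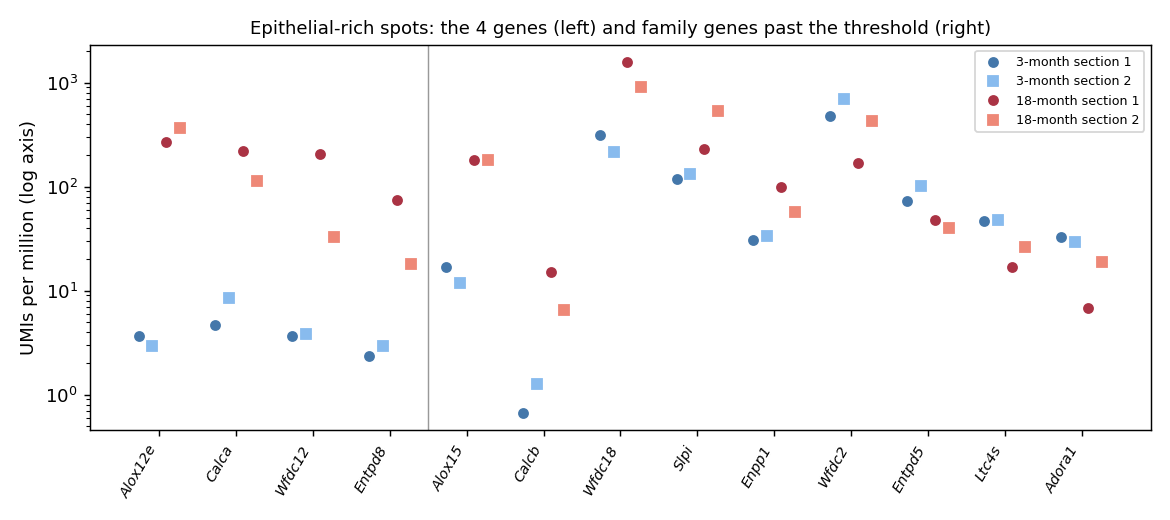
Level in epithelial-rich spots (CPM, log axis) of the 4 genes, left of the line, and of the family genes past the threshold, right of it; each point is 1 section. Alox15 lies higher in both 18-month sections, with 17.0 and 11.8 at 3 months and 179 and 180 at 18 months.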

How the data were processed

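The authors deposited, per section, a matrix of raw UMI counts per gene and spot under tissue, written by Space Ranger 2.0.0 per the file headers, with mm10 as the build per the submitters' processing notes. For the probes, the sources used here name no set. A deposited table holds Moran's I, a score, beside an adjusted p-value, per the file headers, and the authors' deposited spot positions (grid rows and columns) were used as given.

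UMIs were summed per section and spot class and compared with sections as replicates in edgeR 4.0.16 (quasi-likelihood test after filterByExpr and TMM scaling, Benjamini-Hochberg over all genes tested, threshold 0.05). Genes of the pan-epithelial list, of which Krt18 was not measured, were left out of the test on epithelial-rich spots. Splits kept the section as a block and left out sections with under 10 spots on a side. Exact permutation of 2 sections against 2 cannot go below p = 0.333. Alternatives were DESeq2 1.42.0, other scalings, filters, spot definitions and depths, and leaving out each section. The main edgeR fits were tested on simulated data, and the alternatives were not. Python 3.11.15 and R 4.3.3 were used.

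The 4 genes, the marker and family lists and the tests were chosen with earlier results of these data known. Other genes named are the 5 most like each gene, list members past the threshold, and the 5 with the largest increase in each split. Genes named outside this rule (those beside the 4 in the ranking, the genes lower in the Krt10 split, the neighbours and the list markers) were chosen after their values were seen.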

Additional observations from a re-analysis of the deposited data

How the results depend on the processing

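The 4 genes kept their direction by age in epithelial-rich spots under all 12 alternatives. This comparison chose the 4 genes and the alternatives use largely the same UMIs, so the kept direction is no independent support. Alox12e had a log2 ratio of 6.55 with library size alone, 6.53 with a spot share of at least 0.5% and 5.84 to 6.41 with 1 section left out. Leaving out 1 section gave 2.78 to 5.31 for Wfdc12 and 2.42 to 4.35 for Entpd8. The number of genes past the threshold by age in these spots was 1587 and became 2600 with library size alone, 759 with DESeq2, 727 with a share of at least 0.5%, 2727 with a share of at least 0.2% and 339 to 2171 with 1 section left out (339 without 18-month section 1). Over all spots it was 11944 and became 3308 without lymphoid-rich spots, and outside the epithelial-rich spots it was 11846 and became 7666 to 10993 with 1 section left out (7666 without 18-month section 2).

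In the Krt10 split the count was 6 and became 17 with no filter, 0 with DESeq2 (70 at an unadjusted p under 0.05), 36 with the 18-month sections alone and 0 to 10 with 1 section left out. The 0 came without either 18-month section (edgeR, 525 and 471 genes at an unadjusted p under 0.05). Entpd8 turned to -0.0114 with no filter, -0.19 with DESeq2, -0.0257 without 18-month section 2, and ran from -0.486 to 0.224 with 1 section left out. Alox12e turned to 0.14 without 18-month section 2 and ran from -0.37 to 0.14. In the Krt14 split the count was 66 and became 130 with no filter, 29 with DESeq2, 235 with at least 2 UMIs, 0 of 206 genes tested with spots thinned to 500 UMIs (edgeR, 15 at an unadjusted p under 0.05) and 3 to 131 with 1 section left out. Wfdc12 turned to 0.088 with library size alone, 0.0294 with no filter, 0.0368 with at least 2 UMIs and 0.49 without 3-month section 2, and was -0.107 without 3-month section 1. Apart from thinning and left-out sections, the cause of these moves was not tested.

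Of the 10 genes most like Alox12e and Calca, 5 were kept with patches of at least 5000 UMIs and 5 with single spots. The replicate block gave 1763 genes by age in epithelial-rich spots, 12214 over all spots and 11978 outside. The labels do not say that the numbers pair sections, and same-numbered sections deviated together with correlations of -0.0755, 0.0377 and 0.0332. The Epcam split, the Krt10 split with at least 2 UMIs or after thinning, and the Krt14 split on the 18-month sections alone were not run, for lack of spots. Wfdc12 and Entpd8 rest on 40 and 22 UMIs in epithelial-rich spots of 18-month section 2, and depth limits what can be said of them there.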
